A study of Mus musculus with 6 samples.

Results

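The genes of retinoic acid synthesis, clearance and reception were followed in tailbuds of mouse embryos at embryonic day 9.5. They are 10 genes, read from the 37310 gene rows by a list of names: Rdh10, Aldh1a2 and Aldh1a3 for synthesis, Dhrs3 for the return of retinal to retinol, Cyp26a1, Cyp26b1 and Cyp26c1 for clearance, and Rara, Rarb and Rarg for the receptors. The count files hold 3 libraries of WT/WT tailbuds (WT) and 3 of tailbuds homozygous for Danforth's short tail (Sd/Sd, written Sd), with polyadenylated RNA sequenced from each. All embryos came from an outbred CD-1 colony, and some libraries pool the tailbuds of 2 embryos. Danforth's short tail is a germline mutation near Ptf1a that truncates the tail and disturbs the notochord, and the libraries serve to find the genes it alters in the tailbud.

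Retinoic acid is made from vitamin A in successive oxidations: retinol to retinal, chiefly by RDH10 in the embryo, and retinal to retinoic acid by the ALDH1A enzymes. DHRS3 turns retinal back into retinol, and the CYP26 enzymes oxidise retinoic acid to products that are cleared. Retinoic acid binds the receptors RARA, RARB and RARG, which pair with RXR proteins on DNA and switch target genes on. In the extending tail Aldh1a2 is known as a gene of the somites and Cyp26a1 as a gene of the tail tip, and loss of Cyp26a1 in mice truncates the tail.

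None of the 9 genes that could be tested passed between genotypes, and the main pattern lay between individual libraries. Cyp26a1 and Aldh1a2 had nearly the same mean in both genotypes, yet Sd replicates 2 and 3 lay at opposite ends of the 6 libraries for both, one high where the other was low. Aldh1a3 had the largest log2 fold change of the 9 tested genes, lower in Sd, and its groups overlapped. Cyp26c1 was close to silent.

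Totals were 41788978 to 62296689 counts per library. Ptf1a, whose ectopic expression marks the mutation, had 1 to 5 counts in the WT libraries and 848 to 959 in the Sd libraries. Of 9 tailbud progenitor markers, among them T, Tbx6, Fgf8 and Wnt3a, 9 were tested and none is listed at 0, with a summed level of 665 to 889 CPM (counts at one shared library size) in WT and 440 to 951 CPM in Sd. Somite markers summed to 204 to 294 CPM in WT, and to 360, 438 and 34.9 CPM in Sd replicates 1, 2 and 3. Sd replicate 3 thus held the least somite marker RNA and Sd replicate 2 the most. Of the 10 somite markers only Ripply1 is listed at 0, as is every gene of the X chromosome in these files. Neural tube markers followed the same order in Sd, at 147, 178 and 67.5 CPM, against 119 to 157 CPM in WT; of these Sox3, also on the X chromosome, is listed at 0. In bulk tissue, fewer cells of a type and less RNA per cell cannot be told apart.

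Promoter windows were looked at first, because some genes of the pathway are themselves switched on by retinoic acid. RefSeq (GRCm38.p6) gave the 250 bases before the transcription start for 8 of the 10 genes, and Aldh1a3 and Rdh10 had no entry. The receptor pair is known to bind direct repeats of a half-site, here AGGTCA or, as accepted forms of it, AGTTCA and also GGGTCA and likewise GGTTCA, with 2 copies in the same direction spaced by 1, 2 or 5 bases, on both strands. The spacing of 5 was found before Cyp26a1 and Rarb, both textbook targets of retinoic acid, and before none of the other 6 genes with a window. Across all genes with a window, 28 of 27025 (0.104%) held that spacing. Neither the spacing of 1 nor that of 2 was found before any of the 8 genes, and 0.196% and 0.204% of all genes held them. The windows of Cyp26a1 (chr19:37697558-37697807, plus strand) and Rarb (chr14:16575477-16575726, minus strand) are shown 5′ to 3′ because they carry the repeat, with its half-sites in capitals.
Cyp26a1: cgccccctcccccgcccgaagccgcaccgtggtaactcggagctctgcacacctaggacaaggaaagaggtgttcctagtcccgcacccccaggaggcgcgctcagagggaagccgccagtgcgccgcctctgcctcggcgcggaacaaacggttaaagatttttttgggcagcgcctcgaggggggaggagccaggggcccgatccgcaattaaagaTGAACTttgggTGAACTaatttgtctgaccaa
Rarb: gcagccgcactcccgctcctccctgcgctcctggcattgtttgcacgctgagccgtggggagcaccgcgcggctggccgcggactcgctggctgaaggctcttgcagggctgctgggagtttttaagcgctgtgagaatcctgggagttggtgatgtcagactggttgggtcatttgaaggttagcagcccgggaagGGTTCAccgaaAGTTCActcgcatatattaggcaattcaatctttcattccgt
The Cyp26a1 repeat reads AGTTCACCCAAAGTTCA on the opposite strand and spans bases 32 to 16 before the start. That of Rarb reads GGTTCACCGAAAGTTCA and spans bases 53 to 37. A match of letters is a description of the window and does not show binding in these tailbuds.

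**Figure D1:**
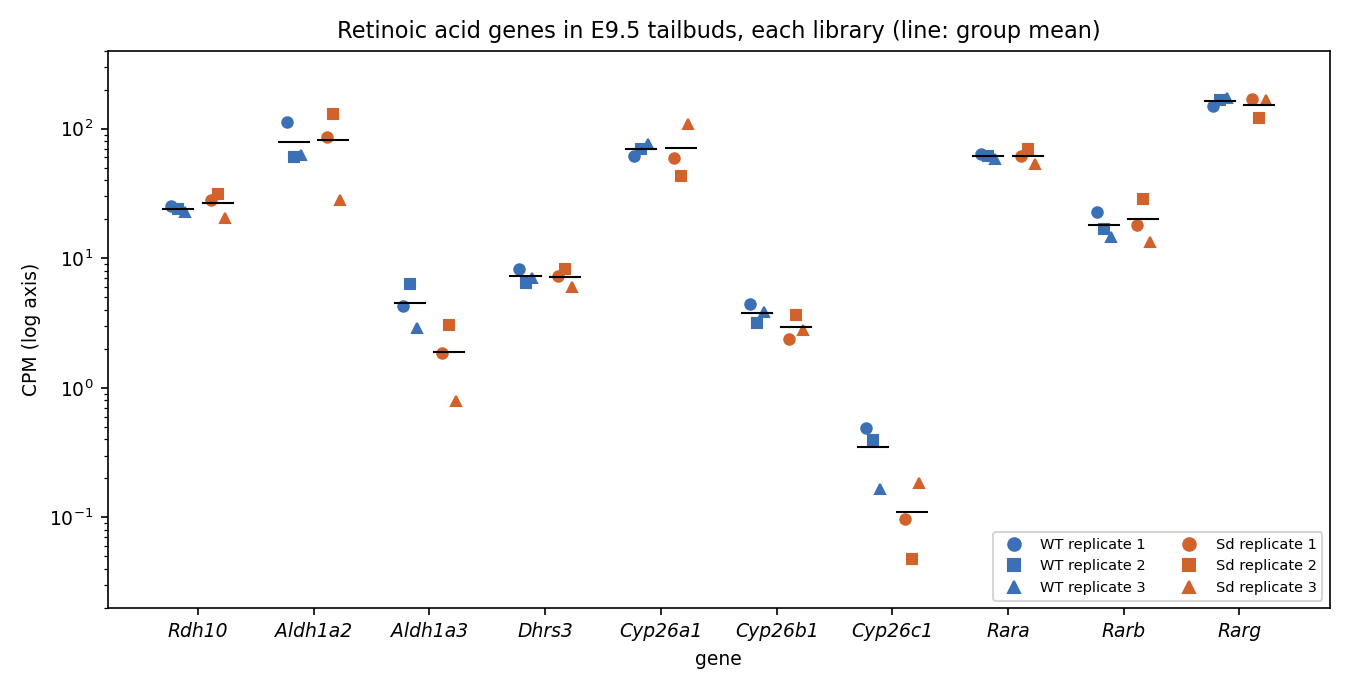
CPM of each of the 10 genes (log axis) in every library, WT in blue and Sd in orange, with the replicate number as the symbol and a line at the group mean. The Sd points of Aldh1a2 and Cyp26a1 spread widely around means close to those of WT, and Aldh1a3 and Cyp26c1 have lower Sd means with overlapping groups.

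Synthesis begins with Rdh10 (ENSMUSG00000025921.7, chromosome 1), the retinol dehydrogenase. It stood at 25.5, 23.8 and 22.8 CPM in WT replicates 1, 2 and 3 and at 28.2, 31.5 and 20.6 CPM in the Sd replicates. The highest and the lowest of the 6 libraries were both mutant. Its log2 fold change, Sd minus WT, was 0.15 (SE 0.15, 95% confidence interval -0.18 to 0.49, adjusted p = 1.00 in edgeR).

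Aldh1a2 (ENSMUSG00000013584.5, chromosome 9) encodes the main retinal dehydrogenase of the early trunk. Its level was 113, 60.9 and 62.8 CPM in WT replicates 1, 2 and 3, and 87.0, 130 and 28.1 CPM in Sd replicates 1, 2 and 3. The Sd libraries spanned the whole range, a 4.62-fold span, with all WT libraries between Sd replicates 3 and 2. The means were 78.7 ± 29.3 (WT) against 81.8 ± 51.2 CPM (Sd) (SD, n = 3). The log2 fold change of Aldh1a2 was 0.06 (SE 0.64, adjusted p = 1.00 in edgeR), with an interval of -1.66 to 1.77 that leaves wide room for a change either way. It was -0.45 without Sd replicate 2 and 0.46 without Sd replicate 3.

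Aldh1a3 (ENSMUSG00000015134.8, chromosome 7), a related retinal dehydrogenase best known from the eye and nose, was far scarcer. It measured 4.29, 6.28 and 2.89 CPM in WT and 1.87, 3.03 and 0.795 CPM in Sd. All but one of the Sd libraries lay below every WT library, and Sd replicate 2 exceeded WT replicate 3. The means were 4.49 ± 1.70 (WT) against 1.90 ± 1.12 CPM (Sd) (SD, n = 3), a log2 fold change of -1.23 (SE 0.49, 95% confidence interval -2.37 to -0.09). Aldh1a3 had an unadjusted p = 0.0376 and did not pass over all genes (adjusted p = 1.00 in edgeR). Aldh1a3 was lower in Sd in 3 of 3 pairs of libraries of the same number, a pairing that the labels do not give. A 2-sided sign-flip test on 3 pairs cannot give less than 0.25. The share of all genes lower in each pair was not counted. With the replicate block its log2 fold change was -1.34 (SE 0.25, unadjusted p = 0.000271, adjusted p = 0.135 in edgeR). DESeq2 gave an adjusted p = 0.593, and the log2 fold change was -0.87 without Sd replicate 3 and -1.76 without Sd replicate 2. Hindgut markers, 8 genes including Epcam, Cldn6 and Foxa2, summed to 209 to 234 CPM in WT and 154 to 164 CPM in Sd. All 8 had a negative log2 fold change and none is listed at 0. Of the 8, 1 (Shh) passed in edgeR, against 0.0194% of all genes tested called lower, 4 in DESeq2, against 0.224% of all genes called, and 5 were lower without overlap, against 4.42%. Of 6 notochord markers, which share Shh and Foxa2 with the hindgut list, 6 were negative, 1 (Shh) passed in edgeR and 3 were lower without overlap, with sums of 186 to 228 CPM in WT and 93.9 to 219 CPM in Sd. Of 4 tested yolk sac endoderm markers 4 were negative, 0 passed in edgeR (2 had an unadjusted p under 0.05, and DESeq2 called 0) and 2 were lower without overlap, with sums of 2.72 to 5.94 CPM in WT and 0.979 to 4.44 CPM in Sd. Intermediate mesoderm markers, 6 genes with 5 negative, 2 lower without overlap and 0 past the test in edgeR and in DESeq2 (2 at an unadjusted p under 0.05), summed to 75.6 to 85.6 CPM in WT and 59.4 to 74.8 CPM in Sd. The 4.42% of all genes lower without overlap is the share to set beside each of these counts. Negative signs were not particular to these 4 lists. They also held for 6 of 7 endothelium, 5 of 5 erythroid, 4 of 6 lateral plate and 6 of 9 progenitor markers tested. Of the neural tube markers tested 4 of 7 were negative, and of the somite markers 2 of 9. The part of any of these lists in the Aldh1a3 value was not tested.

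Dhrs3 (ENSMUSG00000066026.7, chromosome 4), the retinal reductase that works against RDH10, had a 1.38-fold span over the libraries. It stood at 8.31, 6.49 and 7.04 CPM in WT and at 7.25, 8.32 and 6.04 CPM in Sd. The highest and lowest libraries, Sd replicates 2 and 3, again were mutant. The log2 fold change of Dhrs3 was -0.01 (SE 0.18, 95% confidence interval -0.41 to 0.39, adjusted p = 1.00 in edgeR).

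The first of the clearance genes is Cyp26a1 (ENSMUSG00000024987.5, chromosome 19), which encodes the retinoic acid hydroxylase of the tail tip. It measured 61.3, 69.9 and 76.8 CPM in WT and 59.7, 43.4 and 108 CPM in Sd. As with Aldh1a2, the mutant libraries held both extremes, but in reverse: Sd replicate 3 was the highest and Sd replicate 2 the lowest. The means were 69.3 ± 7.74 (WT) against 70.5 ± 33.8 CPM (Sd) (SD, n = 3). Its log2 fold change was 0.02 (SE 0.36, 95% confidence interval -0.91 to 0.95, adjusted p = 1.00 in edgeR). Without Sd replicate 3 it was -0.43 (adjusted p = 0.859 in edgeR), and without Sd replicate 2 it was 0.28.

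Cyp26b1 (ENSMUSG00000063415.5, chromosome 6), the family member best known from limb bud, hindbrain and gonad, stood at 4.44, 3.14 and 3.84 CPM in WT and at 2.38, 3.64 and 2.79 CPM in Sd. The groups overlapped, and the log2 fold change of Cyp26b1 was -0.37 (SE 0.24, 95% confidence interval -0.91 to 0.17, adjusted p = 1.00 in edgeR). Cyp26c1 (ENSMUSG00000062432.4, chromosome 19), a neighbour of Cyp26a1 known from the head and hindbrain, did not pass the filter on low counts. It had 26, 21 and 7 counts in WT and 4, 3 and 9 counts in Sd, or 54 against 16, a ratio of WT to Sd of 3.49 (95% exact binomial interval 1.97 to 6.53, counting error only). On the CPM scale WT replicate 3 (0.166 CPM) lay below Sd replicate 3 (0.184 CPM), so the groups overlapped. Fitted without the filter, Cyp26c1 came to -1.69 on the log2 scale, Sd minus WT (SE 0.70, edgeR unadjusted p = 0.0282, adjusted p = 1.00).

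Per kilobase of exon, Cyp26a1 made up 96.5% to 98.9% of the summed level of the Cyp26 genes in each of the 6 libraries. Aldh1a2 likewise made up 95.2% to 99.0% of the 2 listed Aldh1a genes.

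Rarg and Rara had the narrowest intervals of the 9 tested genes. Rarg (ENSMUSG00000001288.8, chromosome 15), the receptor gene of unsegmented posterior tissue, measured 149, 166 and 172 CPM in WT and 168, 120 and 165 CPM in Sd. Sd replicate 2 was the lowest library and the other Sd values lay among those of WT. Rara (ENSMUSG00000037992.9, chromosome 11), the broadly expressed receptor gene, measured 63.8, 61.6 and 58.0 CPM in WT and 61.6, 69.8 and 53.9 CPM in Sd. Their log2 fold changes were -0.10 (95% confidence interval -0.40 to 0.20) for Rarg and 0.02 (-0.21 to 0.24) for Rara, each with an adjusted p = 1.00. in edgeR

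Rarb (ENSMUSG00000017491.7, chromosome 14), a receptor gene that retinoic acid itself induces, stood at 22.6, 16.8 and 14.5 CPM in WT and at 18.0, 28.5 and 13.3 CPM in Sd. Its extremes were Sd replicates 2 and 3, as for Aldh1a2, and its log2 fold change was 0.15 (SE 0.31, 95% confidence interval -0.59 to 0.89, adjusted p = 1.00 in edgeR). The Rarb values are uncertain, because 1793 of its 5265 exon bases overlap Top2b on the opposite strand in GENCODE M21. Top2b held 77113 counts over the 6 libraries against 2697 in WT and 3179 in Sd for Rarb, and no source used here tells whether reads were counted by strand.

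**Figure D2:**
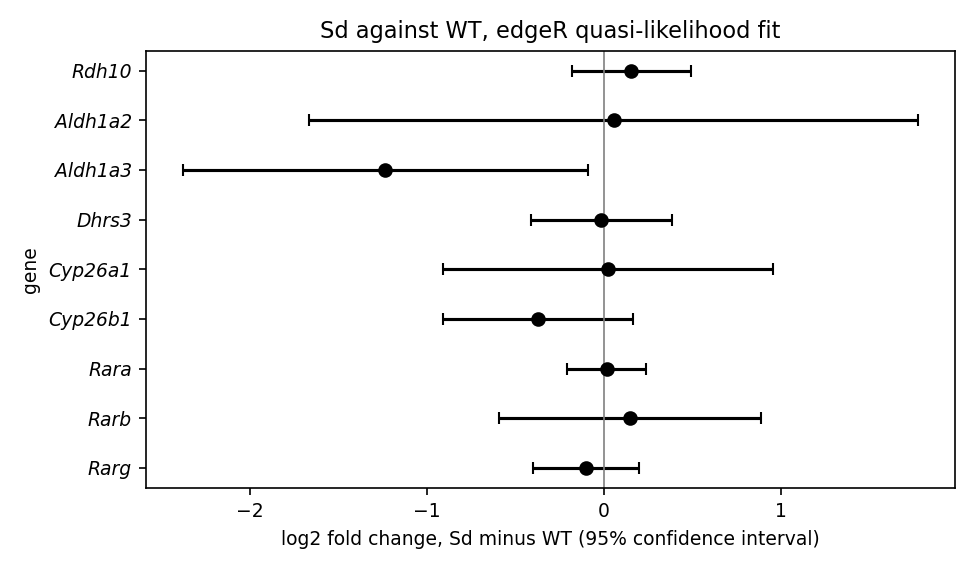
Log2 fold change, Sd minus WT, of the 9 tested genes (points) with 95% confidence intervals from the edgeR fit (bars). The interval of Aldh1a3, -2.37 to -0.09, lies below 0 before adjustment for all genes tested, and that of Aldh1a2 is the widest of the 9.

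Across the 9 tested genes, 0 were higher and 0 lower at an adjusted p under 0.05 (edgeR, Benjamini-Hochberg). Of all 15471 genes, 0.0388% were higher and 0.0194% lower, or 0.0582% in all. At an unadjusted p under 0.05 the count was 1, Aldh1a3, against 2.90% of all genes. DESeq2 called 0 of the 9 genes, against 0.224% of all genes, limma-voom 0 against 0.0194%, and the fit with a replicate block 0 against 0.0776%. None of the 9 had groups without overlap, against 7.68% of all genes. The log2 fold change was above 0 for 5 genes and below 0 for 4, with a median of 0.02 against -0.00 over all genes tested.

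Levels were set against each other only per length. In WT, Rarg (38.1 ± 2.82 CPM per kilobase of exon), Cyp26a1 (35.0 ± 3.90) and Aldh1a2 (34.8 ± 12.9) led, with overlapping mean ± SD (SD, n = 3). Per kilobase of the longest transcript Rarg stood at 55.0 ± 4.07 CPM in WT, above Cyp26a1 (38.7 ± 4.32) and Aldh1a2 (34.8 ± 12.9) beyond the SD. Rara followed at 14.0 ± 0.678 CPM per kilobase, then Rdh10 at 5.78 ± 0.337 and Rarb at 3.42 ± 0.793. Dhrs3 measured 2.49 ± 0.318, Aldh1a3 0.972 ± 0.369, Cyp26b1 0.711 ± 0.121 and Cyp26c1 0.201 ± 0.0963 CPM per kilobase. Per kilobase of exon the mean ± SD of the neighbours Rarb and Dhrs3 overlapped, as did those of Aldh1a3 and Cyp26b1. In Sd the 3 leaders stood at 35.5 ± 6.32, 35.5 ± 17.04 and 36.1 ± 22.6 CPM per kilobase of exon, with overlapping mean ± SD.

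**Figure D3:**
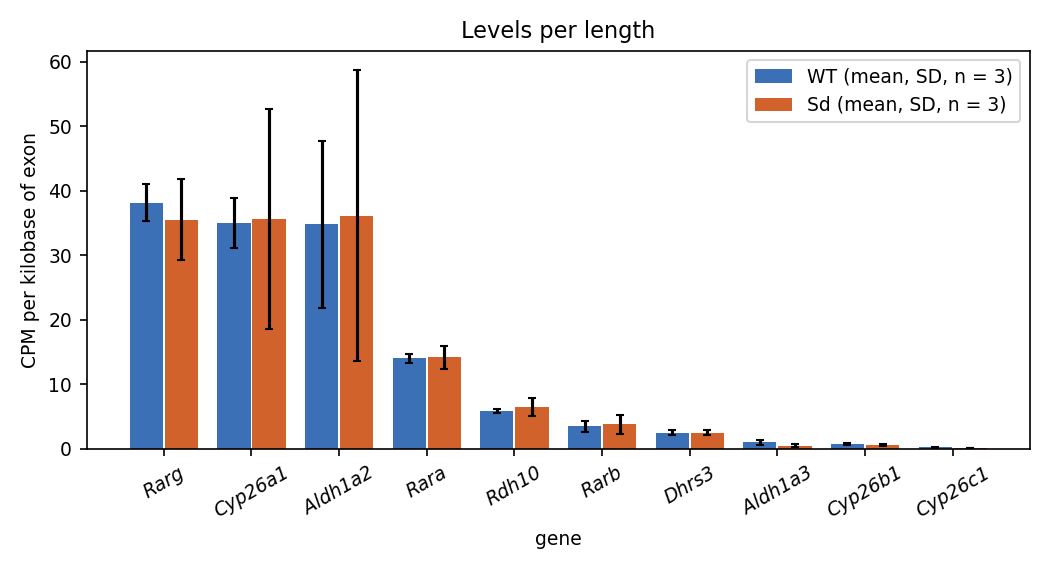
Mean CPM per kilobase of exon for each of the 10 genes in WT (blue) and Sd (orange), with SD over 3 libraries as error bars. Rarg, Cyp26a1 and Aldh1a2 stand near 35 in both genotypes, and the Sd error bars of Cyp26a1 (17.04) and Aldh1a2 (22.6) exceed those of WT.

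The opposed order of Cyp26a1 and Aldh1a2 was then measured within libraries, where the ratio does not depend on scaling. The log2 ratio of Cyp26a1 to Aldh1a2 counts was -0.88, 0.20 and 0.29 in WT replicates 1, 2 and 3. In Sd replicates 1, 2 and 3 it was -0.54, -1.58 and 1.94. The mutant libraries therefore ran from the lowest to the highest ratio, with every WT library between them. The group means were -0.13 ± 0.65 and -0.06 ± 1.81 (SD, n = 3), a difference of 0.07 (exact permutation test, 2-sided p = 1.00, where 3 against 3 cannot give less than 0.1). Summed over the listed Cyp26 and Aldh1a genes, the difference in log2 ratio was 0.11 (exact permutation p = 0.900). Without Sd replicate 3 the difference for Cyp26a1 and Aldh1a2 was -0.94, and without Sd replicate 2 it was 0.83.

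On the log2 CPM scale Cyp26a1 and Aldh1a2 were inversely related over the 6 libraries, with Pearson's r = -0.95 (exact permutation p = 0.00556, adjusted 0.0104) and Spearman's rho = -0.89 (exact permutation p = 0.0333, adjusted 0.05, at and not under the threshold). Aldh1a2 was high where the summed somite markers were high, with r = 0.94 (exact permutation p = 0.00694, adjusted 0.0104) and rho = 0.94 (exact permutation p = 0.0167, adjusted 0.05). Meox1 alone averaged 138 CPM in WT and 160 CPM in Sd, a large part of the somite sums. The relation without Meox1 was not calculated. Cyp26a1 against the summed tailbud progenitor markers gave r = 0.89 (exact permutation p = 0.0292, adjusted 0.0292) and rho = 0.83 (exact permutation p = 0.0583, adjusted 0.0583). These 3 relations form 1 family for the Benjamini-Hochberg adjustment. They were not among the planned results, and the first restates the opposed order already described above. Their p-values are therefore a description. Sd replicates 2 and 3 lay farthest from the median in each. Over the other 4 libraries r was -0.83, 0.76 and 0.50 (exact permutation p = 0.250, 0.292 and 0.458) and no relation passed the test. With 4 libraries few orders exist and the range is narrower, so this test had little room to pass and decides nothing. Within a genotype 3 libraries are too few for a value. The order of libraries by Aldh1a2 was not particular to the somite list. Summed neural tube markers ranked the 6 libraries in the same order as Aldh1a2. Summed notochord markers ranked them as Cyp26a1 did, except that WT replicate 3 (228 CPM) lay above Sd replicate 3 (219 CPM). The notochord list shares T with the progenitor list, so its order is not separate from that of the progenitor markers. No coefficient was calculated for the neural tube or the notochord list. The part of somite, neural tube, progenitor and notochord markers in the levels of Aldh1a2 and Cyp26a1 was not tested.

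**Figure D4:**
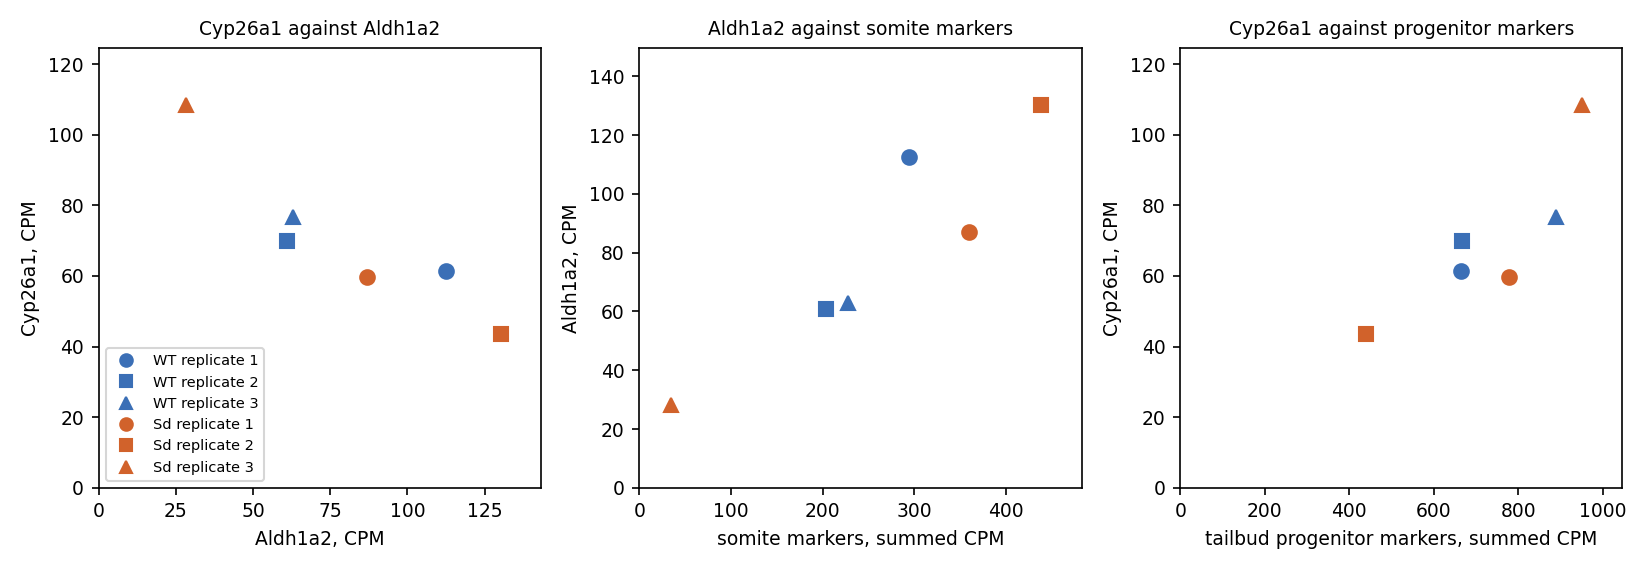
Each point is 1 library, WT in blue and Sd in orange, symbol by replicate: Cyp26a1 against Aldh1a2 (CPM), Aldh1a2 against summed somite markers, and Cyp26a1 against summed tailbud progenitor markers. Sd replicate 3 combines the highest Cyp26a1 (108 CPM) with the lowest Aldh1a2 (28.1 CPM), and Sd replicate 2 the lowest Cyp26a1 (43.4 CPM) with the highest Aldh1a2 (130 CPM).

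The same libraries marked the extremes of other members. Sd replicate 2 was the highest and Sd replicate 3 the lowest library for 5 of the 9 tested genes (Aldh1a2, Rdh10, Dhrs3, Rara and Rarb), against 8.23% of all genes tested. The reverse held for 1 gene, Cyp26a1, against 7.67% of all genes. This count was made after the values were seen and is a description. The SD of log2 CPM over the 6 libraries was 1.01 for Aldh1a3, 0.79 for Aldh1a2 and 0.44 for Cyp26a1, beside a median of 0.16 over all genes tested. It was lowest for Rara, at 0.13, and 8 of the 9 genes lay above that median.

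The genes nearest in pattern were taken by the root mean square difference of centred log2 CPM over the 6 libraries, among 12834 genes with a mean of at least 1 CPM. For Cyp26a1 they were Fgf17, a growth factor gene of the tailbud (difference 0.09), Hbegf, an EGF-family growth factor gene (0.10), and Dsc3, a desmosomal cadherin gene (0.10). Fgf17 ran at 51.7, 55.4 and 67.6 CPM in WT and 52.7, 33.2 and 81.1 CPM in Sd, again with Sd replicates 2 and 3 as its extremes. For Aldh1a2 they were Hes5, a Notch target gene of neural progenitors (0.09), Slit1, a guidance cue gene (0.11), and Sox9, a transcription factor gene of cartilage and neural progenitors (0.12). Hes5 stood at 7.76, 3.75 and 4.38 CPM in WT and 6.33, 8.21 and 2.00 CPM in Sd.

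Other genes of the pathway also gave no call: in each of the 5 further lists, 0 genes passed with edgeR, 0 had an unadjusted p under 0.05, and DESeq2 and limma-voom called 0. Among uptake, carrier and storage genes, 8 of 11 were tested, 1 with a positive and 7 with a negative log2 fold change, at a median of -0.10. The smallest p belonged to Scarb1, a lipoprotein receptor gene (47.6 ± 3.02 CPM in WT, 43.9 ± 4.21 CPM in Sd; log2 fold change -0.12), and Rbp4, the plasma retinol carrier gene (4.85 ± 1.09 and 4.04 ± 0.414 CPM; -0.27). Of 22 further dehydrogenase, reductase and oxidase genes 14 were tested, 9 positive and 5 negative, at a median of 0.04. Por, the electron donor of microsomal P450 enzymes such as the CYP26 family, measured 75.1 ± 5.30 (WT) against 81.2 ± 2.08 CPM (Sd) (log2 fold change 0.11). Aldh1a1, a further retinal dehydrogenase gene, was near silent at 0.371 ± 0.161 and 0.584 ± 0.226 CPM (log2 fold change 0.67).

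Among genes of cellular binding proteins, Crabp1, which binds retinoic acid in the cytoplasm, measured 104 ± 9.94 (WT) against 102 ± 1.65 CPM (Sd), and Fabp5, a fatty acid binding protein that can also carry retinoic acid, 150 ± 3.17 and 151 ± 10.0 CPM (SD, n = 3). Their log2 fold changes were -0.03 and 0.02, and 3 of the 4 listed binding genes were tested, 2 positive and 1 negative, at a median of 0.00. Per kilobase of exon Crabp1 (130 CPM in WT) and Crabp2 (148 CPM in WT, named after its values were seen) stood above all 10 genes of the main list. Fabp5 (41.9 CPM in WT) also stood above them by that measure, but close to Rarg (38.1 CPM in WT). Crabp2 ran from 160 CPM in Sd replicate 3 to 235 CPM in Sd replicate 2. Rbp7, the binding gene that was not tested, had 6 counts over the 6 libraries.

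RXR partners and cofactors had 21 of 21 genes tested, 13 positive and 8 negative, at a median of 0.02. Ezh2, a Polycomb methyltransferase gene, measured 250 ± 7.71 (WT) against 265 ± 15.9 CPM (Sd) (log2 fold change 0.08), and Nr6a1, an orphan nuclear receptor gene of the posterior embryo, 94.2 ± 15.5 and 106 ± 16.7 CPM (0.18). In this list 1 gene, Hdac3, had groups without overlap (higher, log2 fold change 0.06; named after its values were seen), against 3.26% of all genes. Among genes known to respond to retinoic acid, 27 of 30 listed were tested, 7 positive and 20 negative, at a median of -0.06. The median over all genes tested was -0.00, and the share of all genes with a negative sign was not counted. Some of these genes, such as Nrip1 and Pax6, also stand in other lists. The list does not say which of its genes retinoic acid raises or lowers, and whether the response to retinoic acid differed was not tested. Tbx1, a T-box gene of mesoderm, stood at 3.46 ± 0.758 and 2.502 ± 0.131 CPM (log2 fold change -0.47, SE 0.23, adjusted p = 1.00 in edgeR), the 1 gene of this list without overlap between groups, against 4.42% of all genes that were lower without overlap.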

How the data were processed

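The deposited files hold raw counts per Ensembl gene, 1 file per library and without normalization. Per the submitters' processing notes the build was mm9 and the tools were STAR 2.5.2b, DESeq2, SAMtools, CASAVA and bcl2fastq 2.17.1.14. No source used here names the read counter, its strand setting or the annotation. Symbols, chromosomes and exon lengths were taken from GENCODE M21 (GRCm38; 32620 of 37310 rows had a symbol), and promoter sequences from RefSeq on GRCm38.p6; the files hold no coordinates.

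Genes were kept by filterByExpr (minimum count 10, total 15), which left 15471. Sd was compared with WT in edgeR 4.0.16 (R 4.3.3; TMM, robust dispersions, quasi-likelihood test, 2-sided), with Benjamini-Hochberg adjustment over all genes tested and a threshold of 0.05. The SE is the size of the log2 fold change divided by the square root of F. CPM use TMM-scaled totals. Scripts were tested on simulated data. Alternatives were DESeq2 1.42.0, limma-voom (limma 3.58.1), other scaling and filters, no robust option, a replicate block, and each library left out. Libraries of the same number deviated together (correlations over genes of 0.194, 0.144 and 0.275), above 0.1 for each pair. WT replicate 1 and Sd replicate 2 also correlated, at 0.182, above the 0.144 of WT replicate 2 and Sd replicate 2. The correlations thus do not single out libraries of the same number, and the labels name no pairing. The main fit used no block, and the replicate block is an alternative only. No 2 libraries of a group agreed within sampling noise. The labels do not say whether replicates are separate litters, and p-values therefore cover only the spread among these libraries, which may be technical.

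The genes and lists were chosen with earlier results of these data known. By rule, the 10 genes were named whatever their result, with up to 3 genes past the threshold or else the 2 of smallest p from each further list, and the 3 genes nearest in pattern to Cyp26a1 and to Aldh1a2. Of the genes this rule names, 1 is left out of the text.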

Additional observations from a re-analysis of the deposited data

How the results depend on the processing

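No alternative called any of the 9 tested genes of the list, in 14 alternatives each. Counts over all genes moved more: against 6 higher and 3 lower, DESeq2 called 19 and 15, limma-voom 3 and 0, edgeR without robust dispersions 3 and 0, and the fit with no filter on low counts 5 lower. With 1 library left out, 2 to 5 genes were higher and 0 to 1 lower. With the replicate block 8 were higher and 4 lower, and the block changed no call among the 9 tested genes; it gave Aldh1a3 a log2 fold change of -1.34 (adjusted p = 0.135 in edgeR) and left the log2 ratio of Cyp26a1 to Aldh1a2 at 0.07 (exact sign-flip p = 1.00, where 3 pairs cannot give less than 0.25).

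Of 126 alternative fold changes, 15 turned sign, all of genes whose interval spans 0. Limma-voom and then the block gave -0.0864 and -0.0746 for Cyp26a1 and -0.13 and -0.14 for Aldh1a2. With 1 library left out the log2 fold change ran from -0.43 to 0.28 for Cyp26a1, -0.45 to 0.46 for Aldh1a2, -0.13 to 0.10 for Dhrs3, -0.0820 to 0.10 for Rara, -0.20 to 0.37 for Rarb and -0.18 to 0.0381 for Rarg. The difference in log2 ratio ran from -0.94 to 0.83 for Cyp26a1 to Aldh1a2 and from -0.88 to 0.84 for the summed genes. The cause was not tested. Aldh1a3, Cyp26b1 and Rdh10 kept their sign in all 14 alternatives. The order of levels per length was the same with the longest transcript in WT. In Sd Rarg (51.2 ± 9.12 CPM per kilobase) then led Cyp26a1 (39.4 ± 18.9) and Aldh1a2 (36.1 ± 22.6), where per kilobase of exon Aldh1a2 led and Rarg was the third. With 3 libraries a group and the spread seen in Sd, the interval for Aldh1a2 ran from -1.66 to 1.77 on the log2 scale, so changes of that size could not be told from 0.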

Other observations

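A pair of ratios was looked at after the values were seen. The log2 ratio of Dhrs3 to Rdh10 counts, enzymes that run the retinol and retinal step in opposite directions, was -1.62, -1.88 and -1.69 in WT replicates 1, 2 and 3 and -1.96, -1.92 and -1.77 in the Sd replicates. The groups overlapped, and the difference was -0.15 (exact permutation test, 2-sided p = 0.200). The log2 ratio of Rarg to Rara was 1.23, 1.43 and 1.57 in WT and 1.45, 0.79 and 1.62 in Sd, a difference of -0.13 (exact permutation test, 2-sided p = 0.900), with Sd replicate 2 the lowest of the 6 libraries.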
